A study of Gallus gallus with 88 samples.

Results

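Messenger RNA of 7 genes of fatty acid use was followed through breast muscle development in broiler chickens and across incubation temperatures. The genes are PPARGC1A, PPARA, PDK4, FABP3, CPT1A, HADHB and ACADL. They were taken by gene symbol, with the highest-mean probe set for each. All 7 symbols had a probe set, exactly 1 each, out of 11528 gene symbols named on the array.

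Long-chain fatty acids enter muscle cells, bind to carrier proteins, are joined to carnitine at the outer mitochondrial membrane and are shortened step by step by β-oxidation inside mitochondria. Nuclear receptors that sense fatty acids and their coactivators set how much of this machinery a cell makes. Breast muscle of the chicken is a fast, largely glycolytic muscle, so it is known for a low reliance on fat oxidation. PPARGC1A is a coactivator of mitochondrial gene programmes, and PPARA is a fatty acid-sensing nuclear receptor. PDK4 is a kinase that blocks pyruvate dehydrogenase and so spares glucose. FABP3 is the heart and muscle fatty acid binding protein. CPT1A makes acylcarnitine for entry to mitochondria, HADHB is the β-subunit of the mitochondrial trifunctional protein, and ACADL is the long-chain acyl-CoA dehydrogenase. These roles are known mainly from mammals, and of the 7 genes only CPT1A, HADHB and ACADL encode enzymes of the oxidation route itself.

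The study measured Musculus pectoralis major on 88 Affymetrix arrays, with 1 animal per array and 8 animals per group. Broiler eggs were kept at 37.8 °C except during a treatment interval, when they were held at 38.8 °C (called warm here) or 36.8 °C (cool). Embryos treated on embryonic days 7 to 10 were sampled on day 10 (ED10), and those treated on days 10 to 13 on day 13 (ED13), each as warm, cool and control groups. At post-hatch day 35 (D35) there were warm and cool groups for each interval and 1 control group, whose labels name either interval (2 birds ED7-10, 6 birds ED10-13) although all were kept at 37.8 °C. All post-hatch birds were kept in a barn and fed a standard diet, and the labels give no sex.

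Values are log2 signal per probe set, as deposited. The median of an array was 7.56 to 8.13 in embryos and 6.32 to 6.76 at D35, so differences were tested only within the embryo set or within D35. Differences were tested with limma, and every adjusted p of a difference is a limma p with Benjamini-Hochberg adjustment over 20706 probe sets. A gene is said to have risen or fallen where that adjusted p was under 0.05. An adjusted p given with a correlation (Pearson r or Spearman rho) is a permutation p instead. It is adjusted over 63 gene pairs or, for marker lists and the array median, over 210 relations. The samples are listed in a pair of blocks for each age, the first with the warm group and 4 controls and the second with the cool group and the other 4 controls. These listing blocks may be a technical batch, and what they stand for is not stated. The 7 measured skeletal muscle markers had a mean level of 10.3 to 11.2 at ED10, 11.4 to 11.7 at ED13 and at least 11.7 at D35. Markers of other tissues were also high on some embryo arrays. The mean level of 7 cartilage markers was 5.30 to 9.99 at ED10 and reached 9.05 in ED13 warm embryos (group median 6.22). That of 5 epidermis markers reached 9.60 in ED10 warm, 9.21 in ED13 cool and 9.28 in ED13 control embryos. A pair of ED10 arrays with high liver markers is described next.

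A pair of ED10 warm arrays, numbered 9 and 13 in the labels, stood apart from the rest. The mean level of 5 liver markers (ALB, APOA1, FGB, TTR and AHSG) was 13.4 on array 9 and 12.6 on array 13, against 5.95 to 7.83 on the other 46 embryo arrays. Albumin (ALB) read 14.4 and 14.3 on these arrays, against at most 9.86 elsewhere in the embryo set. Fibrinogen β (FGB) read 14.7 and 13.9, against at most 6.70, and transthyretin (TTR) 13.7 and 13.3, against at most 5.74. AHSG read 11.33 and 8.89, and only array 9 exceeded the highest other embryo array, at 11.27. The same 2 arrays were the highest of the ED10 warm group for 6 of the 7 genes and the lowest for FABP3. CPT1A read 12.2 and 11.2 on them, against 9.58 to 10.4 on the other 6 warm arrays. PDK4 read 10.4 and 8.98, against 5.21 to 7.22, and PPARA 10.2 and 9.02, against 6.92 to 7.89. HADHB read 11.9 and 11.5, against 10.7 to 10.9. For these 4 genes both arrays also lay above every other embryo array. Their part in each ED10 warm result is shown by giving it with and without them, a choice made after the data were seen.

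**Figure D1:**
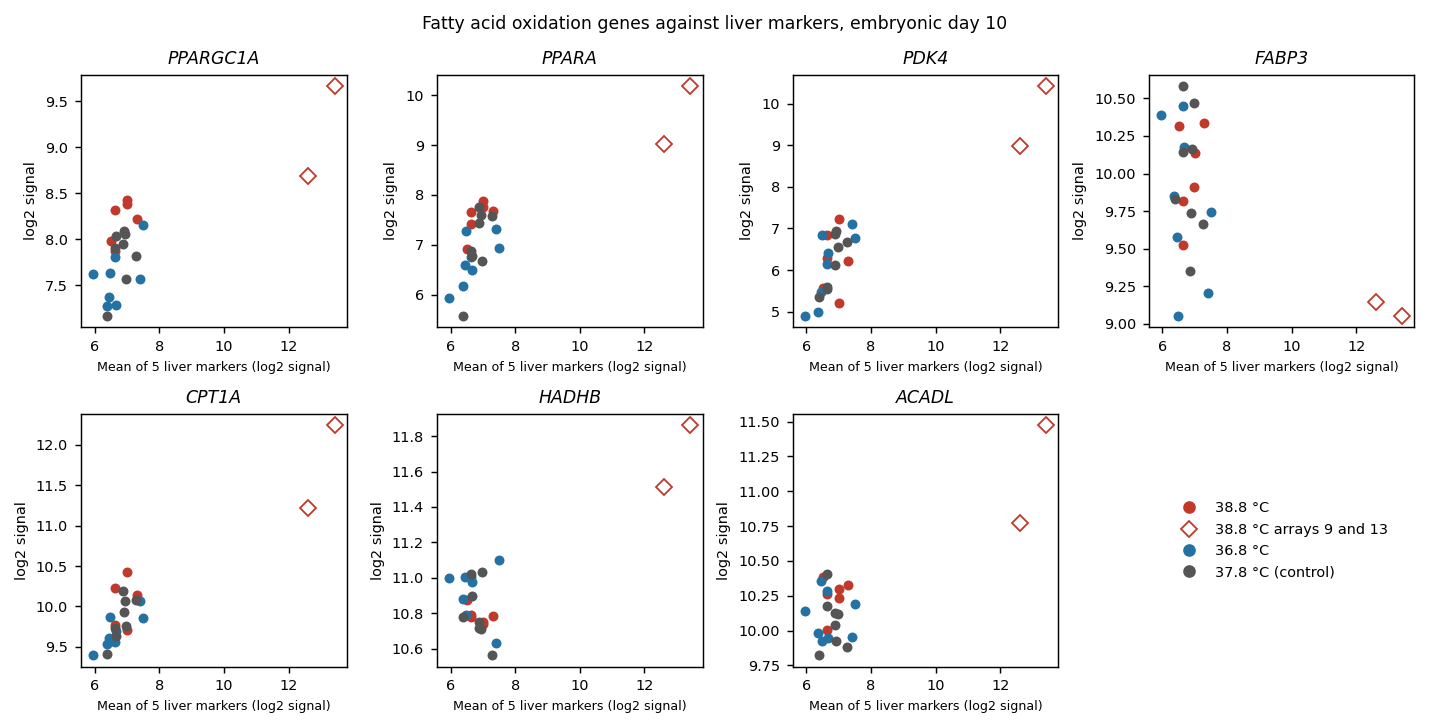
Log2 signal of each gene (vertical axis) against the mean log2 signal of 5 liver markers (horizontal axis) on the 24 ED10 arrays, 1 point per animal. Arrays 9 and 13 of the 38.8 °C group (open diamonds) lie at 13.4 and 12.6 on the horizontal axis, apart from all others, and are highest for every gene but FABP3.

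Between embryonic days 10 and 13, PPARGC1A, PPARA, PDK4, FABP3 and ACADL rose in the control and cool groups, while CPT1A and HADHB did not pass there. In controls 5 of the 7 genes rose and none fell, where 26.8% of all probe sets passed (9.65% higher and 17.2% lower). In the cool group the same 5 genes rose, where 26.4% of probe sets passed (14.4% higher and 12.1% lower). In the cool and warm groups the treatment interval also differed, days 7 to 10 at ED10 and days 10 to 13 at ED13. Age and interval cannot be told apart in those groups. The median difference over the 7 genes was 0.96 in controls and 1.27 in the cool group, against -0.04 and 0.01 over all named genes. The ED10 and ED13 embryos also differed in tissue make-up by their markers. In controls, 7 of 7 measured skeletal muscle markers rose and 7 of 7 measured cartilage markers fell. The mean level of the cartilage markers in controls was 5.66 to 6.499 at ED13 and 8.13 to 9.73 at ED10. The part of tissue make-up in the changes below was not tested, and in whole tissue fewer cells of a type cannot be told apart from less RNA per cell. The share of all probe sets whose ages did not overlap was not computed, so lack of overlap below has no background beside it.

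PPARGC1A spanned 8.73 to 9.22 (median 9.08) in ED13 controls and 7.17 to 8.09 (median 7.93) in ED10 controls. The groups did not overlap. The difference was 1.23 ± 0.15 (log2, SE), a 2.34-fold rise (adjusted p 6.902e-09). In the cool group it was 1.44 ± 0.15 (adjusted p 1.068e-10), also without overlap. In the warm group it was 0.66 ± 0.15 (adjusted p 0.0006568), and 0.90 ± 0.12 without arrays 9 and 13 (adjusted p 7.684e-08).

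PPARA spanned 7.59 to 8.58 (median 7.99) in ED13 controls and 5.58 to 7.76 (median 7.15) in ED10 controls. These groups overlapped, although all 8 ED13 controls were above the ED10 mean. The difference was 0.96 ± 0.28 (SE, adjusted p 0.008868), and 1.27 ± 0.28 in the cool group (adjusted p 0.0005859), where the ages did not overlap. The size in controls differed by listing block (4 controls each per age). Means were 8.15 at ED13 and 7.59 at ED10 in the block of the warm group. In the block of the cool group they were 7.83 and 6.47. In the warm group PPARA did not pass (0.24 ± 0.28, adjusted p 0.6247). Without arrays 9 and 13 it rose there by 0.76 ± 0.23 (adjusted p 0.01236).

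PDK4 showed the largest difference of the 7 genes in controls and in the cool group. It spanned 7.42 to 8.68 (median 8.33) in ED13 controls and 5.36 to 6.95 (median 6.34) in ED10 controls. Every ED13 control was above every ED10 control. The rise was 1.98 ± 0.43 (SE), or 3.95-fold (adjusted p 0.0003692), and 1.74 ± 0.43 in the cool group (adjusted p 0.001869). In the warm group it was 1.23 ± 0.43 (adjusted p 0.03395) with all arrays and 2.10 ± 0.31 without arrays 9 and 13 (adjusted p 1.577e-06).

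FABP3 spanned 10.6 to 11.9 (median 11.1) in ED13 controls and 9.35 to 10.6 (median 9.99) in ED10 controls. The ranges touched without overlapping, the lowest ED13 value being 10.63 and the highest ED10 value 10.58. The rise was 1.198 ± 0.21 (SE, adjusted p 9.78e-06) in controls and 1.38 ± 0.21 (adjusted p 7.273e-07) in the cool group. It was 1.15 ± 0.21 in the warm group (adjusted p 2.667e-05) and 0.92 ± 0.21 there without arrays 9 and 13 (adjusted p 0.0008061). By listing block, control means of FABP3 were 11.27 at ED13 and 9.73 at ED10 in the block of the warm group. In the block of the cool group they were 11.11 and 10.26.

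The oxidation enzymes moved less. ACADL spanned 10.2 to 10.5 (median 10.4) in ED13 controls and 9.82 to 10.4 (median 10.1) in ED10 controls, ranges that overlapped. Its rise was 0.32 ± 0.11 (SE, adjusted p 0.02905) in controls and 0.38 ± 0.11 (adjusted p 0.009819) in the cool group. In the warm group it did not pass with all arrays (-0.08 ± 0.11, adjusted p 0.6875) or without arrays 9 and 13 (0.14 ± 0.08, adjusted p 0.2439). HADHB was 10.5 to 10.8 in ED13 controls and 10.6 to 11.03 in ED10 controls, a difference of -0.12 ± 0.10 that did not pass (adjusted p 0.4263). CPT1A was 9.63 to 9.95 in ED13 controls and 9.42 to 10.2 in ED10 controls, a difference of -0.08 ± 0.20 that did not pass (adjusted p 0.8147).

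In the warm group 3 of the 7 genes rose and 2 fell with all 16 arrays, where 22.8% of probe sets passed (8.4% higher and 14.4% lower). HADHB fell by 0.34 ± 0.10 (SE, adjusted p 0.01248) and CPT1A by 0.56 ± 0.20 (adjusted p 0.03437). Without arrays 9 and 13, 4 genes rose and none fell, where 20.1% of probe sets passed (7.55% higher and 12.5% lower). HADHB then differed by -0.11 ± 0.06 (adjusted p 0.2426) and CPT1A by -0.13 ± 0.11 (adjusted p 0.5277). With only the warm groups fitted and all arrays kept, PDK4, HADHB and CPT1A did not pass (adjusted p 0.159, 0.1126 and 0.2047).

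**Figure D2:**
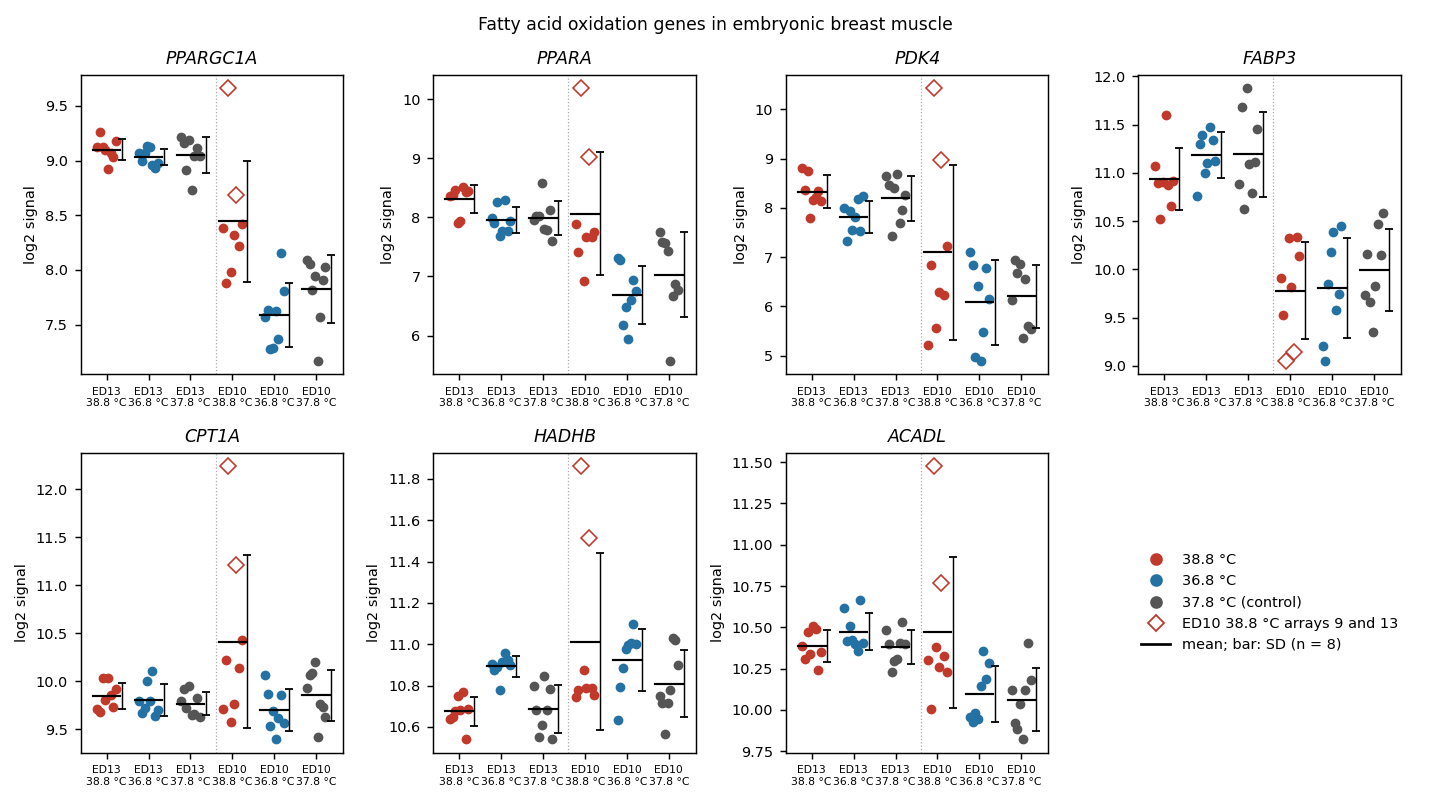
Log2 signal of each gene in every embryo, by age and incubation temperature (horizontal axis), with the mean and SD of 8 animals per group. PPARGC1A, PDK4 and FABP3 are higher at ED13 without overlap in controls, and the open diamonds are arrays 9 and 13 of the ED10 38.8 °C group. The share of all probe sets without overlap was not computed.

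The change with age was tested for a difference between temperatures as an interaction. The warm and control groups differed in their change by -0.57 ± 0.21 for PPARGC1A and -0.40 ± 0.16 for ACADL (SE, adjusted p 0.9998 for both). PDK4, PPARA and CPT1A differed by -0.76 ± 0.61, -0.71 ± 0.40 and -0.48 ± 0.28 (adjusted p 0.9998 for each). None of the 7 genes passed, where 0% of probe sets passed and 3.88% had an unadjusted p under 0.05. Without arrays 9 and 13 the values for PPARGC1A and ACADL were -0.33 ± 0.16 and -0.18 ± 0.10 (adjusted p 1 for both). Those for PDK4, PPARA and CPT1A were then 0.11 ± 0.42, -0.20 ± 0.31 and -0.04 ± 0.16, and none passed. For cool against control none of the 7 passed either (adjusted p 0.9691 for all), where 0% of probe sets passed and 2.95% had an unadjusted p under 0.05.

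**Figure D3:**
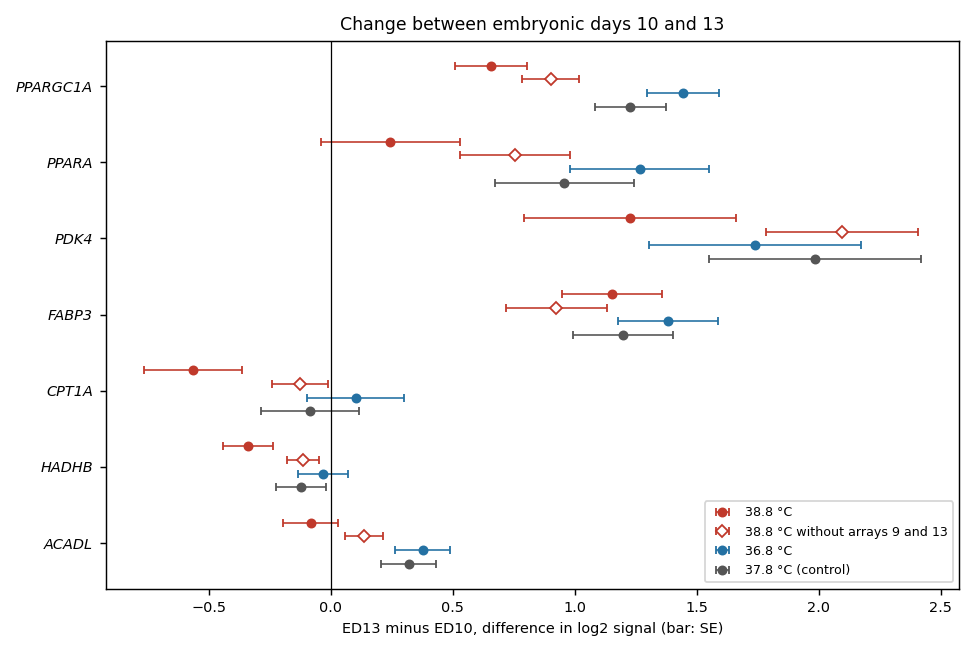
Difference in log2 signal between ED13 and ED10 (horizontal axis, bars are SE) for each gene (vertical axis) at 38.8 °C, at 38.8 °C without ED10 arrays 9 and 13, at 36.8 °C and at 37.8 °C. PDK4, PPARGC1A and FABP3 lie to the right of 0 at each temperature, whereas the negative values of CPT1A and HADHB at 38.8 °C move to -0.13 and -0.11 without arrays 9 and 13.

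Other genes of fatty acid use were read from 9 lists by role, which hold 59 measured genes besides the 7. In controls 19 of them (32.2%) rose and 3 (5.08%) fell between ED10 and ED13, with a median difference of 0.12, where 9.65% of all probe sets were higher and 17.2% lower. In the cool group 18 (30.5%) rose and 1 (1.69%) fell, MLYCD, where 14.4% were higher and 12.1% lower. Among the regulators, the corepressor NRIP1 rose by 0.91 ± 0.20 (adjusted p 0.0004755), the transcription factor KLF15 by 0.84 ± 0.11 (adjusted p 3.023e-08) and the AMP-activated kinase subunit PRKAA2 by 0.78 ± 0.11 (adjusted p 5.184e-07) in controls. Regulators as a list had 7 of 17 measured genes higher and 2 lower, PPARGC1A and PPARA included among the higher. The lower ones, named after their values were seen, were the transcription factor NRF1 (-0.22 ± 0.08, adjusted p 0.03983) and the mediator subunit MED1 (-0.29 ± 0.06, adjusted p 0.000126). Of the uptake genes, the fatty acid translocase CD36 rose by 1.21 ± 0.45 (adjusted p 0.04121), the carrier FABP5 by 0.998 ± 0.15 (adjusted p 8.112e-07) and lipoprotein lipase, LPL, by 0.44 ± 0.12 (adjusted p 0.005925). Uptake and activation had 5 of 11 measured genes higher, FABP3 included, and 1 lower, the transporter SLC27A1 (-0.26 ± 0.08, adjusted p 0.01068).

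In the carnitine shuttle, 1 of 5 measured genes rose in controls, the inner-membrane transferase CPT2 (0.32 ± 0.09, adjusted p 0.004803). For this and the list counts below, 9.65% of all probe sets were higher and 17.2% lower. CPT1B of the same list was not measured, so CPT1A does not stand for both CPT1 genes. Of 12 measured β-oxidation genes 5 rose and none fell. They were ACADL, the thiolase ACAA2 (0.50 ± 0.19, adjusted p 0.04559), the acyl-CoA dehydrogenase family member ACAD9 (0.35 ± 0.12, adjusted p 0.02034) and the electron transfer components ETFDH (0.38 ± 0.09, adjusted p 0.0009332) and ETFA (0.35 ± 0.08, adjusted p 0.0008528). The trifunctional protein's other subunit, HADHA, was not among them. ACADVL, ACADM, ECI2 and ETFB of the same list were not measured. Besides PDK4, its paralogue PDK1 rose by 0.35 ± 0.09 (adjusted p 0.002256), and 2 of 5 measured kinases and phosphatases of pyruvate dehydrogenase rose in all. Of 8 peroxisomal genes only the oxidase ACOX3 rose (0.60 ± 0.19, adjusted p 0.01633), a share near that of all probe sets. Of the lipid droplet genes 3 of 5 rose, namely the coat proteins PLIN1 (1.72 ± 0.62, adjusted p 0.03389) and PLIN3 (1.08 ± 0.39, adjusted p 0.03298) and the lipase MGLL (0.45 ± 0.13, adjusted p 0.007342). PLIN1 is also an adipocyte marker, and of 4 measured adipocyte markers PLIN1 and ADIPOQ rose and LEPR fell in the same comparison. Neither measured ketone body gene nor MLYCD, the only measured gene of malonyl-CoA control, passed.

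In the cool group the named genes included CRAT, the carnitine acetyltransferase (0.53 ± 0.15, adjusted p 0.005825), which had not passed in controls. ACOX2 (0.73 ± 0.22, adjusted p 0.009686), ACAA1 (0.34 ± 0.12, adjusted p 0.02838) and the phosphatase PDP2 (0.41 ± 0.14, adjusted p 0.02535) also rose, and MLYCD fell by 0.20 ± 0.08 (adjusted p 0.04633). In the warm group 6 of the 59 (10.2%) rose and 8 (13.6%) fell with all arrays, shares near those of all probe sets, of which 8.4% were higher and 14.4% lower. The 6 were FABP5, ACSBG2, ESRRB, PRKAA2, KLF15 and PLIN1, led by PLIN1 (2.20 ± 0.62, adjusted p 0.007142). The 8 were the transporter SLC27A1 (-0.25 ± 0.08, adjusted p 0.02099), the carnitine carriers SLC22A5 (-0.59 ± 0.13, adjusted p 0.0006776) and SLC25A20 (-0.18 ± 0.06, adjusted p 0.03277), HADHA (-0.31 ± 0.09, adjusted p 0.01357), the peroxisomal EHHADH (-0.73 ± 0.27, adjusted p 0.04544) and CROT (-0.45 ± 0.12, adjusted p 0.00357), the receptor RXRG (-0.53 ± 0.16, adjusted p 0.01348) and the thiolase ACAT1 (-0.43 ± 0.14, adjusted p 0.01693). Without arrays 9 and 13, 11 (18.6%) rose and 2 (3.39%) fell, where 7.55% of probe sets were higher and 12.5% lower. The 2 were SLC22A5 and MED1 (-0.19 ± 0.06, adjusted p 0.02343). SLC22A5 still passed (-0.35 ± 0.09, adjusted p 0.003544), whereas SLC25A20, HADHA, EHHADH, CROT, RXRG and ACAT1 did not (adjusted p 0.2813, 0.222, 0.8, 0.05905, 0.1577 and 0.2688).

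At the end of treatment on days 7 to 10, no gene of the 7 passed in warm against control embryos, where 0% of probe sets passed and 6.29% had an unadjusted p under 0.05. With all arrays 6 of the 7 were higher in warm embryos, with a median difference of 0.56 against 0.05 over all named genes. PPARGC1A spanned 7.88 to 9.66 (median 8.35) in warm embryos and 7.17 to 8.09 (median 7.93) in controls. The ranges overlapped, and all 8 warm embryos were above the control mean (0.62 ± 0.20, SE, adjusted p 0.6283). PPARA spanned 6.92 to 10.2 (median 7.71) in warm embryos and 5.58 to 7.76 (median 7.15) in controls, a difference of 1.03 ± 0.37 (adjusted p 0.6283). CPT1A and ACADL differed by 0.56 ± 0.27 and 0.41 ± 0.15, and PDK4 and HADHB by 0.89 ± 0.57 and 0.20 ± 0.14 (adjusted p 0.6283 to 0.63). FABP3 differed by -0.21 ± 0.23 (adjusted p 0.7374).

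These values depended on arrays 9 and 13. Without them the median over the 7 genes was 0.12, against 0.05 over all named genes, and again none passed, where 0% of probe sets passed and 3.46% had an unadjusted p under 0.05. PPARGC1A then differed by 0.38 ± 0.15 (SE) and PPARA by 0.52 ± 0.29. CPT1A differed by 0.12 ± 0.14, ACADL by 0.19 ± 0.10, PDK4 by 0.02 ± 0.39, HADHB by -0.02 ± 0.08 and FABP3 by 0.02 ± 0.23 (adjusted p 0.8364 to 0.9937 over the 7). In the same comparison no marker of the epidermis, endothelial, cartilage or erythroid lists passed. All 5 epidermis markers (median 0.63) and all 5 endothelial markers (median 0.32) were above 0, as were 1 of 7 cartilage markers (median -0.70) and 1 of 5 erythroid markers (median -0.23). Their part in these values was not tested. PPARGC1A averaged 8.20 ± 0.22 on the other 6 warm arrays (SD), against 7.98 ± 0.12 in the 4 controls of the same listing block and 7.67 ± 0.39 in the 4 others. PPARA averaged 7.55 ± 0.35 on those 6 arrays, against 7.59 ± 0.13 in the 4 controls of the same block and 6.47 ± 0.60 in the others. Within the block and with all arrays the warm difference was 0.47 ± 0.24 for PPARGC1A and 0.48 ± 0.42 for PPARA (SE, adjusted p 0.9999 for both), where 0% of probe sets passed and 2.15% had an unadjusted p under 0.05.

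In cool against control embryos at ED10 none of the 7 genes passed (adjusted p 1 for all), where 0% of probe sets passed and 2.36% had an unadjusted p under 0.05. The differences ran from -0.34 ± 0.37 for PPARA to 0.11 ± 0.14 for HADHB (SE). PPARGC1A was 7.28 to 8.15 in cool embryos and 7.17 to 8.09 in controls, almost the same range. Within the listing block PPARA differed by 0.21 ± 0.42 instead, and FABP3 by -0.45 ± 0.27 (adjusted p 0.9989 for both), where 0% of probe sets passed and 2.49% had an unadjusted p under 0.05.

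Between warm and cool embryos at ED10 none of the 7 passed, where 0.0338% of probe sets passed (0.00966% higher and 0.0241% lower) and 24.4% had an unadjusted p under 0.05. These groups lie in different listing blocks. The largest differences were 1.38 ± 0.37 for PPARA (adjusted p 0.09405), 1.02 ± 0.57 for PDK4 (adjusted p 0.2715) and 0.85 ± 0.20 for PPARGC1A (adjusted p 0.0904). All 8 warm embryos were above the cool mean for PPARA and for PPARGC1A. Without arrays 9 and 13 the differences were 0.86 ± 0.29 for PPARA, 0.15 ± 0.39 for PDK4 and 0.61 ± 0.15 for PPARGC1A (adjusted p 0.2218, 0.8691 and 0.2218), where 0.00966% of probe sets passed. With the block as a term they were 0.26 ± 0.60, 0.13 ± 0.98 and 0.55 ± 0.34 (adjusted p 0.9862, 0.9977 and 0.9861), where 0% of probe sets passed and 3.15% had an unadjusted p under 0.05.

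At the end of treatment on days 10 to 13, HADHB was the only gene of the 7 that passed between warm and cool embryos. It spanned 10.54 to 10.77 (median 10.68) in warm embryos and 10.78 to 10.96 (median 10.90) in cool embryos. All 8 warm embryos were below all 8 cool embryos. The share of all probe sets with the groups apart in this way was not computed. The difference was -0.22 ± 0.05 (SE), or 0.86-fold (adjusted p 0.01139), where 5.88% of probe sets passed (3.54% higher and 2.34% lower). Warm and cool arrays lie in different listing blocks, and with the block as a term the difference was -0.16 ± 0.08 and did not pass (adjusted p 0.3044). With quantile normalization and the block it was -0.08 (adjusted p 0.6712).

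HADHB in ED13 controls spanned 10.54 to 10.84, with a median of 10.68. Cool embryos exceeded controls by 0.21 ± 0.05 (SE, adjusted p 0.07537), and all 8 cool embryos were above the control mean, although the ranges overlapped. Within the listing block the difference was 0.18 ± 0.06 (adjusted p 0.06715), where 4.23% of probe sets passed (3.85% higher) and 25.4% had an unadjusted p under 0.05. None of the 7 genes passed in this comparison, where 0.00483% of probe sets passed and 14.2% had an unadjusted p under 0.05. Warm embryos and controls differed in HADHB by -0.01 ± 0.05 (adjusted p 0.9237). Both comparisons use the same 8 controls.

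PDK4 spanned 7.80 to 8.82 in ED13 warm embryos, 7.32 to 8.24 in cool embryos and 7.42 to 8.68 in controls. Its differences from control were 0.13 ± 0.18 in warm and -0.37 ± 0.18 in cool embryos, and warm exceeded cool by 0.50 ± 0.18 (SE, adjusted p 0.7662, 0.3568 and 0.1019). PPARA differed by 0.32 ± 0.12 between warm embryos and controls (adjusted p 0.3542) and by 0.35 ± 0.12 between warm and cool embryos (adjusted p 0.09007). With the listing block as a term, PPARA differed by 0.03 ± 0.20 between warm and cool embryos (adjusted p 0.9602). PDK4 then differed by 0.41 ± 0.32 (adjusted p 0.5419), where 0.135% of probe sets passed. None of the 7 passed in warm against control embryos, where 0.00483% of probe sets passed and 12.3% had an unadjusted p under 0.05. Within the listing block PPARA differed by 0.16 ± 0.14 there (adjusted p 1), where 0% of probe sets passed and 3.6% had an unadjusted p under 0.05. PPARGC1A was nearly level at this age, at 9.10 ± 0.10 in warm, 9.03 ± 0.08 in cool and 9.05 ± 0.16 in control embryos (SD, n = 8 each). Of the other 59 pathway genes, 1 (1.69%) passed between warm and cool embryos, where 5.88% of all probe sets passed (3.54% higher). This was PRKAA2, which was 0.38 ± 0.08 higher in warm (adjusted p 0.01158). With the listing block as a term it was 0.28 ± 0.14 and did not pass (adjusted p 0.3205), where 0.135% of probe sets passed.

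At D35 none of the 7 genes passed in any of the 8 comparisons. The share of probe sets passing was 0% in each of the 4 comparisons with the control group, which share the same 8 controls, and 6.4%, 3.09%, 3.14% and 6.37% had an unadjusted p under 0.05 (warm ED7-10, cool ED7-10, warm ED10-13 and cool ED10-13). It was 0.295% and 0.256% for warm against cool (ED7-10 and ED10-13), 0.00483% between the warm intervals and 0% between the cool intervals. The 28 differences from control ran from -0.41 ± 0.18 for PPARGC1A to 0.61 ± 0.23 for FABP3, both in birds cooled on days 10 to 13. Within the listing blocks they ran from -0.39 ± 0.21 for PPARGC1A in birds warmed on days 7 to 10 to 0.39 ± 0.43 for PDK4 in birds warmed on days 10 to 13 (adjusted p 1 for all 28).

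FABP3 spanned 10.7 to 12.5 (median 11.4) in birds cooled on days 10 to 13 and 10.2 to 11.7 (median 10.7) in controls. The ranges overlapped, with 7 of 8 cooled birds above the control mean (adjusted p 0.68). The highest cooled bird read 12.5, and the next 11.5. Within the listing block the difference was 0.37 ± 0.28 (SE, adjusted p 1). PPARGC1A spanned 6.82 to 8.06 (median 7.39) in the same cooled birds and 7.29 to 8.71 (median 7.86) in controls (adjusted p 0.748). Within the block its difference was -0.13 ± 0.21 (adjusted p 1).

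PDK4 spanned 9.75 to 12.4 (median 11.9) in birds cooled on days 10 to 13, 9.94 to 12.3 (median 10.9) in birds warmed on days 7 to 10 and 9.85 to 12.01 (median 11.2) in controls. Its differences from control ran from -0.24 ± 0.35 to 0.44 ± 0.35 (SE) over the 4 treated groups. CPT1A was lower than the control mean in all 8 birds warmed on days 7 to 10, at 9.31 to 9.78 against 9.04 to 10.4 in controls (-0.27 ± 0.16, adjusted p 0.8515, and -0.09 ± 0.19 within the block). ACADL and HADHB differed from control by at most 0.16 in size. PPARA differed by -0.21 ± 0.22 to -0.01 ± 0.22.

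Liver markers moved with the listing block at D35. Their mean level was 8.33 to 11.5 in cool groups and 8.53 to 11.1 in the 4 controls listed with them, against 5.24 to 7.64 in warm groups and 4.85 to 6.30 in the 4 controls listed with those. Among birds, with group means removed, PPARA passed with these markers by r (r = 0.50, permutation, adjusted p 0.01407) and not by rho (rho = 0.39, adjusted p 0.1003). Without the 2 birds farthest from the median of the markers its r was 0.38. The control group holds both blocks, so the block split of the markers remains in these correlations. CPT1A had r = 0.46 (adjusted p 0.05489), and the other 5 genes did not pass. The part of the liver markers in the differences between D35 groups was not tested. Of the other 59 pathway genes only ACSL5, a long-chain acyl-CoA synthetase, passed at D35, at -0.81 ± 0.19 for warm against cool on days 7 to 10 (adjusted p 0.04545). In that comparison 1.69% of the 59 genes and 0.295% of all probe sets passed (0.29% lower). With the listing block as a term ACSL5 differed by -0.08 ± 0.30 and did not pass (adjusted p 0.997), and 0% of probe sets passed.

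**Figure D4:**
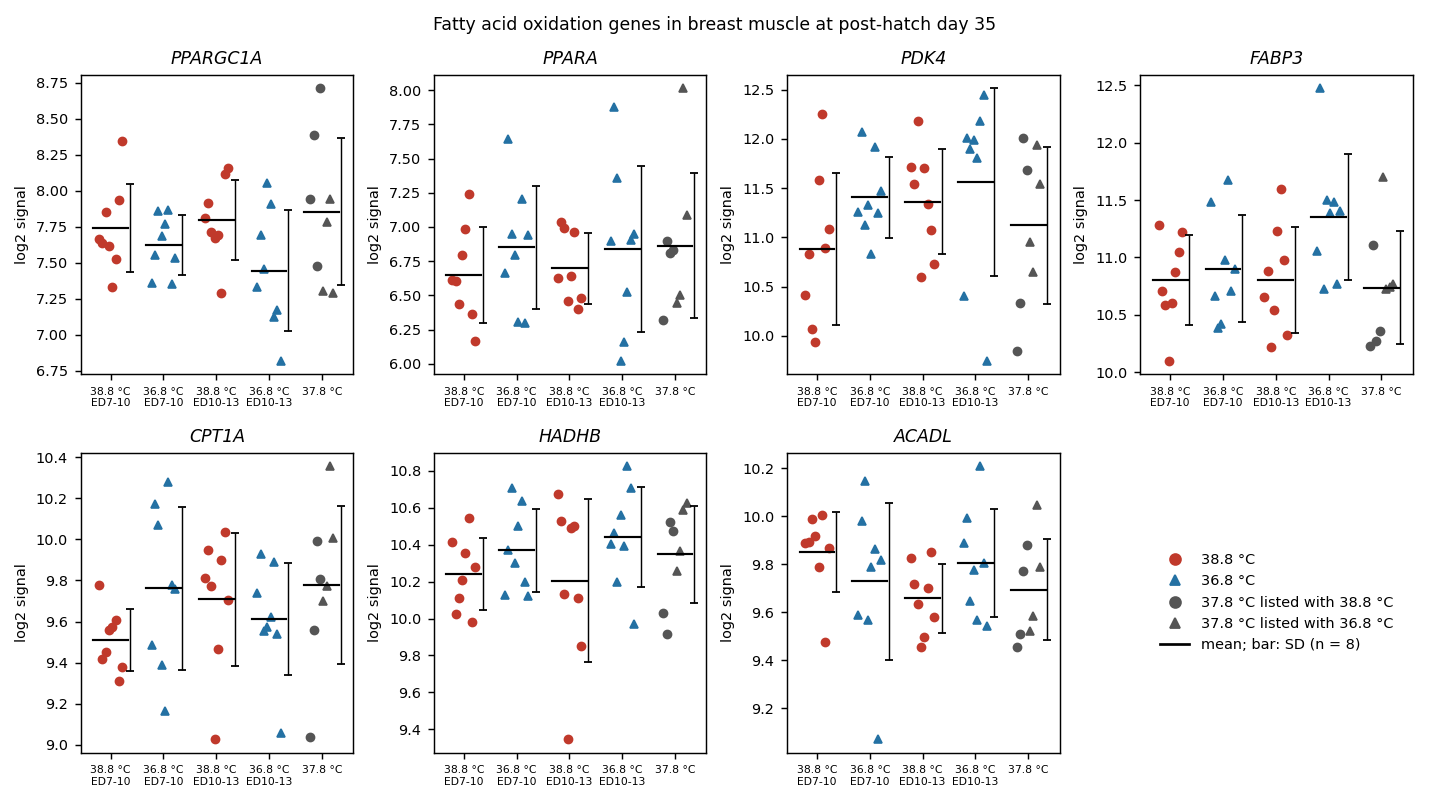
Log2 signal of each gene in every bird at post-hatch day 35, by incubation temperature and interval (horizontal axis), with the mean and SD of 8 birds per group. Circles and triangles mark the 2 listing blocks, and for every gene the treated groups overlap the controls.

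The rank of each gene within its own array was compared over the ages as a description, since embryo and D35 levels are on different scales. PDK4 stood at the 26.9th percentile of probe sets at ED10 on average, the 54.4th at ED13 and the 97.6th at D35. At D35 its lowest bird was at the 93.0th percentile, above the highest ED13 embryo (67.5th) and the highest ED10 embryo (87.9th, array 9). PPARGC1A moved between the 51.2nd, 70.7th and 70.2nd percentiles and PPARA between the 39.2nd, 53.9th and 54.96th, so both stood alike at ED13 and D35. FABP3 stood at 82.2, 94.5 and 97.0. CPT1A stood at 84.0, 82.5 and 91.9, HADHB at 93.5, 92.5 and 95.2, and ACADL at 87.1, 89.7 and 92.4. The ED10 averages include arrays 9 and 13, where PDK4 stood at 87.9 and 68.9 and PPARA at 84.9 and 69.6. Averages without these arrays were not computed. No test was made across the embryo and D35 sets.

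The genes differed in how much animals of a group varied. Each control group holds both listing blocks, so an offset between blocks remains in the SDs below. Their ranks were not matched for signal level. The SD of PDK4 within groups was 1.197 at ED10, 0.38 at ED13 and 0.72 at D35, which placed it above 97.2%, 83.3% and 84.7% of all probe sets. HADHB had an SD of 0.08 at ED13, among the lowest 3.51% of probe sets, and 0.29 at D35. ACADL had an SD of 0.10 at ED13 and 0.22 at D35. PPARGC1A varied by 0.40 at ED10, 0.12 at ED13 and 0.36 at D35. These ED10 values include arrays 9 and 13. Without them the ED10 SD was 0.76 for PDK4 (above 92.6% of probe sets), 0.28 for PPARGC1A, 0.56 for PPARA, 0.27 for CPT1A, 0.17 for ACADL and 0.14 for HADHB.

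Pairs of the genes were compared for joint variation among animals after each group's mean was removed, at each age apart, with 100000 permutations within groups and adjustment over 63 pairs. At ED10 arrays 9 and 13 form a cluster of their own, so the correlations are given for the other 22 arrays, where 6 of 21 pairs passed. With all 24 arrays 12 passed, 3 of them negative and all with FABP3. The share of pairs passing among all genes was not computed, so these counts and those below have no background beside them. Over the 22 arrays PDK4 and CPT1A had r = 0.86 and rho = 0.87 (permutation, adjusted p 0.001155 and 0.000315), and r = 0.87 without the 2 arrays farthest from the median of PDK4. Within the listing blocks r was 0.87 in both. PPARA and CPT1A had r = 0.72 and rho = 0.70 (adjusted p 0.001155 and 0.003675), and r = 0.63 without the 2 farthest. Within blocks their r was 0.27 in the block of the warm embryos and 0.89 in that of the cool embryos.

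PPARA and PDK4 had r = 0.64 and rho = 0.66 at ED10 (adjusted p 0.00819 and 0.0119), but r = 0.05 in the block of the warm embryos and 0.75 in the other, and r = 0.55 without the 2 farthest, which did not pass (adjusted p 0.05908). HADHB and ACADL had r = 0.67 and rho = 0.69 (adjusted p 0.0121 and 0.01158), with r = 0.64 without the 2 farthest and 0.54 and 0.68 within blocks. FABP3 and HADHB had r = 0.64 and rho = 0.65 (adjusted p 0.01995 and 0.02158), and r = 0.25 and 0.64 within blocks. Without the 2 farthest its r was 0.62, which did not pass (adjusted p 0.05389). PPARGC1A and PPARA had r = 0.67 and rho = 0.56 (adjusted p 0.01455 and 0.04922), and r = 0.54 without the 2 farthest, which did not pass (adjusted p 0.07178). All 9 correlations between PPARA, PDK4 or CPT1A and FABP3, HADHB or ACADL were below 0 at ED10, from -0.03 to -0.49, and none passed by Pearson r. By rho PPARA passed with HADHB (-0.66, adjusted p 0.02158) and FABP3 (-0.58, adjusted p 0.04922). Without the 2 farthest arrays PPARA and HADHB passed by both, at r = -0.67 and rho = -0.75 (adjusted p 0.02808 and 0.01852), but within the blocks their r was -0.47 and -0.11. Only group means were removed, so an offset between blocks in controls remains in the 9 correlations. In ED10 controls the block listed with the warm group was higher for PPARA, PDK4 and CPT1A. It was lower for FABP3, HADHB and ACADL (-0.53, -0.25 and -0.14). Within blocks the 9 ran from -0.62 to 0.27, and only PPARA with ACADL, in the block of the cool embryos, was above 0.

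PPARA, PDK4 and CPT1A also moved with markers of other cells and with the array's overall level at ED10. Relations of the 7 genes to 9 marker lists and to the array median were computed at each age without arrays 9 and 13, and 30 of 210 passed by Pearson r after adjustment. Of these, 18 were at ED10, 3 at ED13 and 9 at D35. Only group means were removed, and each control group holds both listing blocks, so an offset between blocks remains in these relations. In ED10 controls the block listed with the warm group exceeded the other by 1.11 for PPARA, 0.89 for PDK4 and 0.43 for CPT1A. The relations were not computed within blocks. At ED10 PPARA had r = 0.93 and rho = 0.89 with the mean of 5 endothelial markers (permutation, adjusted p 0.00035 and 0.0014), and r = 0.87 without the 2 farthest arrays. CPT1A had r = 0.90 and rho = 0.88 with 4 adipocyte markers (adjusted p 0.00035 and 0.00105) and r = 0.88 with the endothelial markers. The mean level of the adipocyte markers at ED10 was 6.19 to 7.45, below the median of every ED10 array (7.56 to 8.13). With the array median r was 0.83 for PPARA, 0.82 for CPT1A and 0.71 for PDK4 (adjusted p 0.00168, 0.00035 and 0.00385), and 0.66, 0.78 and 0.66 without the 2 farthest arrays. With the 5 liver markers r was 0.64 for PPARA, 0.63 for PDK4 and 0.64 for CPT1A (adjusted p 0.009018, 0.03562 and 0.01062). Their rho was 0.64, 0.59 and 0.60 (adjusted p 0.02175, 0.05744 and 0.0499), so PDK4 did not pass by rho. HADHB and FABP3 passed with none of the lists at ED10. PPARGC1A passed by r with the endothelial markers (r = 0.63, rho = 0.51, adjusted p 0.03637 and 0.1183) and the array median (r = 0.65, rho = 0.57, adjusted p 0.02682 and 0.05744), in neither case by rho. ACADL passed with the skeletal muscle markers (r = 0.59, rho = 0.62, adjusted p 0.01499 and 0.02656).

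At ED13 none of the 21 pairs passed. The strongest was HADHB and ACADL with r = 0.41. Without the 2 arrays farthest from the median, 1 of 21 pairs passed by Pearson r.

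At D35 7 of 21 pairs passed, all positive, and the pairs between HADHB, CPT1A and ACADL were among them. The share passing among pairs of all genes was not computed. Without the 2 birds farthest from the median, 6 of 21 pairs passed by Pearson r. That count was 5 where ED10 arrays 9 and 13 were also left out of the pairs, whose adjustment spans all ages. HADHB and CPT1A had r = 0.62 and rho = 0.59 over 40 birds (adjusted p 0.0007087 and 0.001732), and r = 0.48 without the 2 farthest birds. CPT1A and ACADL had r = 0.62 and rho = 0.76 (adjusted p 0.00091 and 0.00021), and r = 0.60 without the 2 farthest. HADHB and ACADL had r = 0.58 and rho = 0.61 (adjusted p 0.000315 and 0.00081). PDK4 went with HADHB (r = 0.59, rho = 0.56, adjusted p 0.0007087 and 0.00238) and with CPT1A (r = 0.54, rho = 0.45, adjusted p 0.001008 and 0.01786). PPARA went with CPT1A (r = 0.53, rho = 0.51, adjusted p 0.005922 and 0.007961) and with ACADL (r = 0.46, rho = 0.45, adjusted p 0.02425 and 0.02688). PPARA and ACADL had r = 0.37 without the 2 farthest, which did not pass (adjusted p 0.1665). Within the blocks these 7 pairs had r of 0.32 to 0.71 among the warm-listed and 0.50 to 0.68 among the cool-listed birds. PPARGC1A and FABP3 passed with no other gene, at r of -0.19 to 0.17 in all their pairs.

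At D35 the array median also went with PPARA (r = 0.68, rho = 0.58, adjusted p 0.00035 and 0.005133), CPT1A (r = 0.56, rho = 0.49, adjusted p 0.0084 and 0.03003), ACADL (r = 0.51, rho = 0.45, adjusted p 0.01499 and 0.0542) and PDK4 (r = 0.46, rho = 0.43, adjusted p 0.04298 and 0.05737). The mean level of the erythroid markers at D35 was 5.19 to 6.16, and that of the epidermis markers 5.03 to 6.199. These levels lay below the median of every D35 array (6.32 to 6.76), so relations to these markers rest on low signal. The 3 oxidation enzymes passed by r with the 5 erythroid markers. HADHB had r = 0.62 and rho = 0.58 (adjusted p 0.00035 and 0.003937), ACADL r = 0.43 and rho = 0.47 (adjusted p 0.01613 and 0.03003) and CPT1A r = 0.38 and rho = 0.38 (adjusted p 0.03679 and 0.09187, so not by rho). PPARA went with the epidermis markers (r = 0.57, rho = 0.51, adjusted p 0.00525 and 0.02656). By rho alone PDK4 passed with the epidermis markers (r = 0.44, rho = 0.47, adjusted p 0.05418 and 0.04276) and PPARGC1A with the endothelial markers (r = 0.42, rho = 0.46, adjusted p 0.05806 and 0.0499). The part of overall array level and of other cell types in the pairs was not tested.

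**Figure D5:**
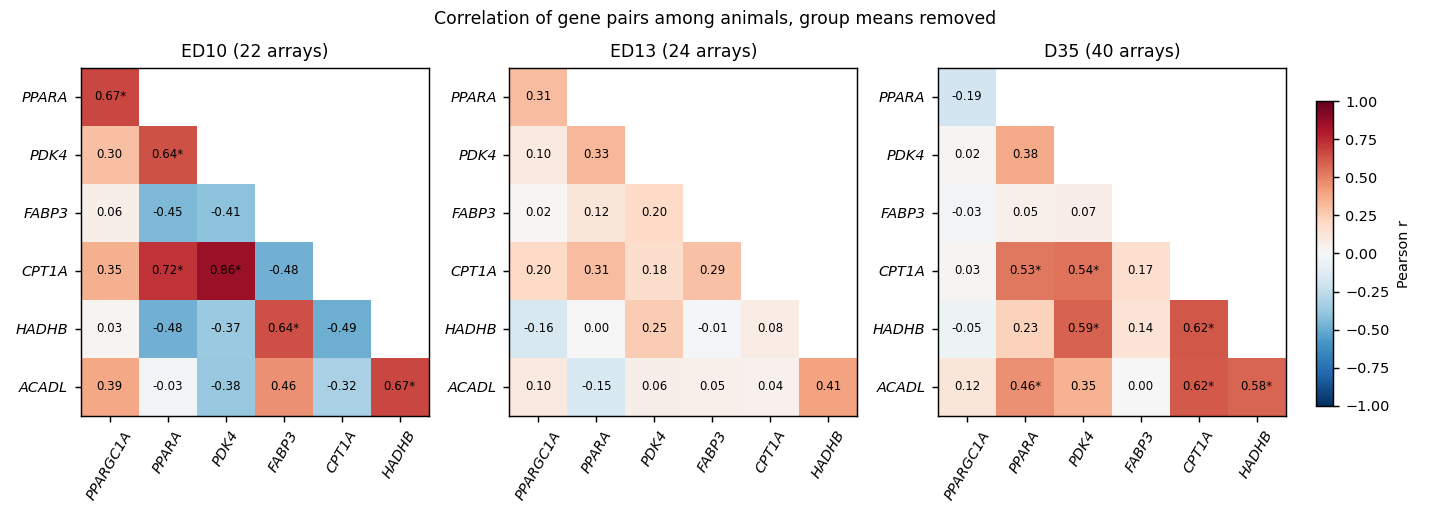
Pearson r of each pair of the 7 genes among animals after removal of group means, at ED10 (22 arrays, without arrays 9 and 13), ED13 (24) and D35 (40). An asterisk marks pairs with an adjusted permutation p under 0.05, of which there are 6 at ED10, 0 at ED13 and 7 at D35.

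The genes whose within-group pattern was most like each of the 7 were read from 11527 other named genes as a description. Only group means were removed, so an offset between listing blocks and the overall array level remain in these r values. The embryo values pool ED10 and ED13, whose spread differed. For PPARA the SD within groups was 0.56 at ED10 without arrays 9 and 13, and 0.25 at ED13. At D35, over 40 birds, those of PDK4 were TRIM63 (r = 0.81), a muscle ubiquitin ligase, and SESN1 (r = 0.79). Those of HADHB were AGPAT2 (r = 0.79) and HADHA (r = 0.76), its partner subunit. PPARA was followed by ACO1 (r = 0.81) and GK2 (r = 0.81), CPT1A by PANK1 (r = 0.78) and MTHFD1 (r = 0.77), and ACADL by ASCC2 (r = 0.76) and ACSL1 (r = 0.73), an acyl-CoA synthetase. PPARGC1A was followed by KIAA0232 (r = 0.72) and the corepressor NCOR1 (r = 0.67), and FABP3 by MAML1 and GXYLT1 (r = 0.58 for both). In the embryo, over the 46 arrays without arrays 9 and 13, PPARA was most like SCYL2 and CDCA2 (r = 0.94 for both), CPT1A like PPP4R4 (r = 0.91) and FNDC3A (r = 0.90), and PDK4 like SIPA1L2 (r = 0.83) and LMO7 (r = 0.80). HADHB was most like NUDT16L1 (r = 0.84) and IDH3B (r = 0.83), a citrate cycle enzyme subunit, and ACADL like COX10 (r = 0.80) and FDXR (r = 0.78), both mitochondrial. PPARGC1A was most like EPM2A and DCBLD2 (r = 0.80 and 0.79), and FABP3 like SEC22B and OGDH (r = 0.74 and 0.66). With arrays 9 and 13 the leading gene was C5 for PPARA (r = 0.92), CPT1A for PDK4 (r = 0.89), SHMT1 for HADHB (r = 0.91) and CRAT for PPARGC1A (r = 0.85), and SEC22B for FABP3 (r = 0.68) as without them.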

How the data were processed

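For each probe set on each array the authors deposited 1 value, taken as log2 signal because the values run from 0 to 20.9 with 43 over 16. The submitters' processing notes name GCOS 1.1.1. Not given in the sources used here were the normalization, the probe summary and the genome build. The pair of deposited tables agreed on 20706 shared rows, and 98 control probe sets were left out. Per the labels' protocols, RNA came from single frozen samples and, after DNase, was made into biotinylated cRNA. The arrays give no read depth, and their number limits the precision.

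Probe sets were named by the platform's annotation, with symbols renewed by Entrez identifier from RefSeq (assembly GRCg7b). This gave 1 symbol to 12300 probe sets, more than 1 to 256 and no symbol to 8150, with 11727 matched by identifier.

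Differences were fitted in R 4.3.3 by lmFit, contrasts.fit and eBayes of limma 3.58.1, 2-sided, over all groups of an age (all 48 embryo arrays for ED13 minus ED10), with Benjamini-Hochberg adjustment over 20706 probe sets and a threshold of 0.05. The script was tested on simulated data. Correlations used numpy 2.4.6 with 100000 permutations. The 7 genes, the role lists and the tests were chosen with earlier results of these data known. The 7 genes are always named. Where a listed gene passed, up to 3 passing genes per role list with the largest difference are named, and a gene outside this rule was added, after its values were seen, only to name the members of a small count. For like genes the rule takes the 2 with the highest Pearson r. Alternatives were the listing block, only the compared groups, quantile normalization, a filter on dim probe sets, a trended and robust prior, 1 probe set per gene, array weights and arrays left out. Samples were grouped by their labels. Relations to marker lists, the listing block for other pathway genes and the results without arrays 9 and 13 were added after the data were seen.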

Additional observations from a re-analysis of the deposited data

Results flagged for a closer look

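Dixon's test at the 95% level was run on each of the 7 genes in each group of 8, 77 sets in all, and 6 had an animal far from the rest, where chance gives about 1 in 20. PPARGC1A was highest on ED10 warm array 9, at 9.66 against 8.69 for the next. That array is 1 of the 2 with high liver markers. HADHB was lowest on ED13 cool array 75, at 10.8, in a group of narrow spread whose next value was 10.9. At D35, PPARA was highest in control array 81, at 8.02 against 7.09 for the next. FABP3 was highest in 1 of the birds cooled on days 10 to 13, at 12.5 against 11.5. CPT1A was lowest on array 91 of the same group, at 9.06 against 9.54. ACADL was lowest on array 72 of the birds warmed on days 7 to 10, at 9.48 against 9.79.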

How the results depend on the processing

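Of 133 values (7 genes in 19 comparisons), 16 passed, and none of these 16 changed direction under any alternative. Altogether 47 values that had not passed, of at most 0.76 in size, changed sign under at least 1 alternative, 30 of them with the listing block. Against the counts with all arrays, quantile normalization brought ED10 warm minus cool to 1 passing gene (PPARGC1A, 0.72) and array weights to 2 (PPARGC1A, 0.78, and PPARA, 1.21). ED13 cool minus control reached 1 (HADHB, 0.21) when dim probe sets were left out and with a trended and robust prior. ED13 warm minus cool had 0 with the listing block (HADHB, -0.16) and with quantile normalization and the block (-0.08), and 2 with array weights (PPARA added, 0.37). With the listing block PPARA was 0.03 in that comparison. ED13 minus ED10 in the warm group had 2 passing genes when only these groups were fitted. There ACADL changed sign to 0.033 with array weights, 0.0615 without the array of lowest correlation at each age and 0.14 without arrays 9 and 13, and CPT1A did not pass without the lowest-correlation array (-0.30, adjusted p 0.14). Of the 63 pairs 19 passed with all arrays, 24 with group-by-block means removed, 14 without the 2 arrays farthest on the x axis and 13 without arrays 9 and 13. Another probe set per gene could not be tried, since each gene has 1. No paired analysis was possible because animals of the compared groups share no numbers. Numbers 11 and 13 recur in ED10 warm and D35 warm ED7-10, 51 in ED10 cool and D35 cool ED7-10, and 70 in ED10 and D35 controls. These belong to different animals that were not compared. The cause of these changes was not tested, apart from the arrays or probe sets that an alternative leaves out.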
